A study of Mus musculus with 6 samples.

Results

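The genes described here are 6 signals of the epidermal keratinocyte, chosen by name from the deposited table: the cytokines Tslp, Il33, Il1a, Il1b and Il18, and Il1rn, which encodes the interleukin-1 receptor antagonist. All 6 were found by Ensembl gene ID among 12894 gene IDs. They were chosen with their values in these libraries known, so their difference between the groups is a description and carries no test.

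The tissue is newborn epidermis (C57BL/6, postnatal day 0), freed of dermis and measured by bulk RNA sequencing, so the RNA of all its cells is read together. The 3 libraries labelled knockout carry the genotype Hnrnpu knockout, made with loxP and Cre. Of the 3 controls, control 1 is labelled Wild type, and controls 2 and 3 carry the genotype word Heterogenous, whose meaning is not explained. The promoter that drives Cre is not given in the sources used here. Titles give each library a number of its own, taken here as 1 animal each. Values are normalized counts per gene, with an estimated depth of 6460000 to 9120000 assigned reads per library.

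Hnrnpu itself lay between 1160 and 1450 normalized counts in the controls and between 1036 and 1565 in the knockout-labelled libraries. It therefore does not check the genotype, and every direction below rests on the labels. Xist RNA was high in knockout 2 and 3 only, where Ddx3y, a gene of the Y chromosome, was listed at 0. Ddx3y had 544 to 646 normalized counts in the controls and 323 in knockout 1. Read by these transcripts, the controls and knockout 1 were male, and knockout 2 and 3 were female. Sex was thus not balanced between the groups, and its part in the differences below was not tested. All 8 keratinocyte markers had values in every library, with summed levels of 656703 to 688052 normalized counts in the controls and 503082 to 711092 in the knockout-labelled libraries. Of these markers, Krt14, a keratin of the basal layer, and Dsg3, a desmosomal cadherin, rose by 3.21 ± 0.61 and 3.07 ± 0.53 on the log2 scale (limma adjusted p = 0.00547 and 0.00383), and the other 6 did not pass. A higher gene count in a bulk sample cannot tell more RNA per cell from more cells of a type.

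Keratinocytes hold or make several cytokines that tell other cells of damage. TSLP (thymic stromal lymphopoietin) and interleukin-33 act on dendritic cells, innate lymphoid cells, mast cells and T cells and are known for their part in allergic skin inflammation. Interleukin-1 alpha and interleukin-33 are kept in the cell and released on injury, whereas interleukin-1 beta and interleukin-18 are made as inactive precursors that caspase-1 cuts. Interleukin-1 alpha and beta signal through one receptor, IL1R1, and the receptor antagonist blocks it.

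The bases just upstream of a start site are shown for Il1a, Il1b and Il33, which had low levels in the controls, and for Il1rn, which did not, so that their promoters can be compared. None is shown for Tslp. The sequences are RefSeq's, of build GRCm38.p6, another build than the mm39 named for the files. Each is the 150 bases before 1 annotated start, on the gene's strand. Capitals mark an AP-1 motif (TGANTCA, either strand) or a TATA box (TATAAA, gene strand).
Il1a, chr2:129309973-129310122, minus strand: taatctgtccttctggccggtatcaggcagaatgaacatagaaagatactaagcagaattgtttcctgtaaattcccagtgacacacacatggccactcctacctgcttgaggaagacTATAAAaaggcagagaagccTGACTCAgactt
Il1b, chr2:129371140-129371289, minus strand: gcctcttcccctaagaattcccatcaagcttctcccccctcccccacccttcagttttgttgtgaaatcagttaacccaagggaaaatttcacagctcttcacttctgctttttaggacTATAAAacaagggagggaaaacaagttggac
Il33, the second of 2 listed starts, chr19:29945640-29945789, plus strand: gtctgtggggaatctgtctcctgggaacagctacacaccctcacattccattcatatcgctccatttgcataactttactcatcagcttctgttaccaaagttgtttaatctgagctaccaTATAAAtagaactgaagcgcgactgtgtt
Il1rn, the first of 3 listed starts, chr2:24336710-24336859, plus strand: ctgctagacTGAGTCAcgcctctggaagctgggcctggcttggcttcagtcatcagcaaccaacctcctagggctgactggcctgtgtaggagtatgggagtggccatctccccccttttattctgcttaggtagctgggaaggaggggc

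Il1a, Il1b and Il33 each had a TATA box that began 29 to 32 bases before the start shown, and Il1rn had none at its first start. At the first listed start of Il33 the only TATA box began 203 bases before it. Il18 and the interleukin-36 genes Il36b and Il36g were searched too and had no TATA box, so nothing is read from this comparison. AP-1 motifs were found 12 bases before the start of Il1a, 141 bases before the first start of Il1rn and 236 bases before that of Il36b. Among all 32851 listed promoter windows of 300 bases, 8.32% held the TATA box and 7.81% the AP-1 motif, at any position in the window. The NF-kB consensus motif (8.46% of windows) and the ATF4 response element TGATGNAA (3.97%), both searched on both strands, had no match in the listed windows of Il1a, Il1b, Il1rn, Il18 and Il33. The deposited values do not say which start was used.

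Tslp was the lowest of the 6 genes in the controls, with at most 1 read per library, and the highest in the knockout-labelled libraries. It was listed at 0, 0.885 and 0 normalized counts in the controls in order and had 2517, 6315 and 2697 in knockout-labelled libraries 1 to 3. The control value corresponds to 1 read in control 2, and a count of 0 allows up to 2.27 and 2.45 normalized counts in controls 1 and 3 (3 reads). Over the pooled libraries, 8837 estimated reads stood against 1, a ratio of 12695 with an exact 95% interval of 2278 to 501470. The interval covers counting error only and leaves out the spread between animals. The 3 knockout values lay far above every control value and differed among themselves by 2.51-fold.

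Il33 was also near the detection limit in the controls. It had 9.82, 7.08 and 0.817 normalized counts in controls 1 to 3, which are 13, 8 and 1 estimated reads. The libraries labelled knockout 1 to 3 had 307, 1637 and 427. The log2 difference, on the scale of log2(value + 1), was 6.79 ± 0.78 (moderated SE, n = 3 and 3). It was 6.00 without control 3, the lowest control, and 6.07 without knockout 2, the highest library.

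Il1a was the steadiest of the genes with a large difference. Controls 1 to 3 had 58.1, 63.8 and 56.2 normalized counts, and knockout-labelled libraries 1 to 3 had 577, 1038 and 800. The log2 difference was 3.70 ± 0.24 (SE), and the ratio of the group means was 13.6. A noncoding gene on the other strand, Gm14023, overlaps Il1a in the GRCm38 annotation and had at most 51.3 normalized counts in any library. Strand handling is not given in the sources used here, so reads of the 2 genes cannot be told apart where they overlap.

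Il1b had the widest spread among the knockout-labelled libraries. Its values were 5.29, 8.85 and 11.4 normalized counts in the controls in order and 24.3, 490 and 63.2 in knockout-labelled libraries 1 to 3. Knockout 2 alone stood 11.2-fold above the mean of the other 2. The log2 difference was 3.34 ± 0.94 (SE), 2.14 without knockout 2, and 1.46 for knockout 1 alone against the controls. The groups did not overlap, but the lowest knockout value was only 26 estimated reads. The antisense gene Il1bos overlaps Il1b in the annotation.

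Il1rn and Il18 were already well expressed in the controls and differed less. Il1rn had 960, 1192 and 1220 normalized counts in the controls in order and 1722, 3260 and 2283 in knockout-labelled libraries 1 to 3, a log2 difference of 1.07 ± 0.25 (SE). It was 0.62 for knockout 1 alone. Il18 had 385, 338 and 424 in the controls and 535, 572 and 819 in the knockout-labelled libraries, a log2 difference of 0.73 ± 0.21 (SE). With library totals set equal, the median over all genes was −0.36 in place of −0.02, the Il18 difference was 0.38 and that of Il1rn 0.72. On the other strand, Bco2 and Tex12 overlap Il18.

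In all 6 genes the 3 libraries labelled knockout lay above the 3 controls. Of 12872 genes tested, 25.8% had that arrangement. Because the 6 were chosen on this contrast, nothing is read from their count. Knockout 2 was the highest library for Tslp, Il33, Il1a, Il1b and Il1rn, and knockout 3 for Il18. The ratio of knockout 2 to the mean of knockout 1 and 3 ranged from 0.844 for Il18 and 1.51 for Il1a to 4.46 for Il33 and 11.2 for Il1b.

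**Figure D1:**
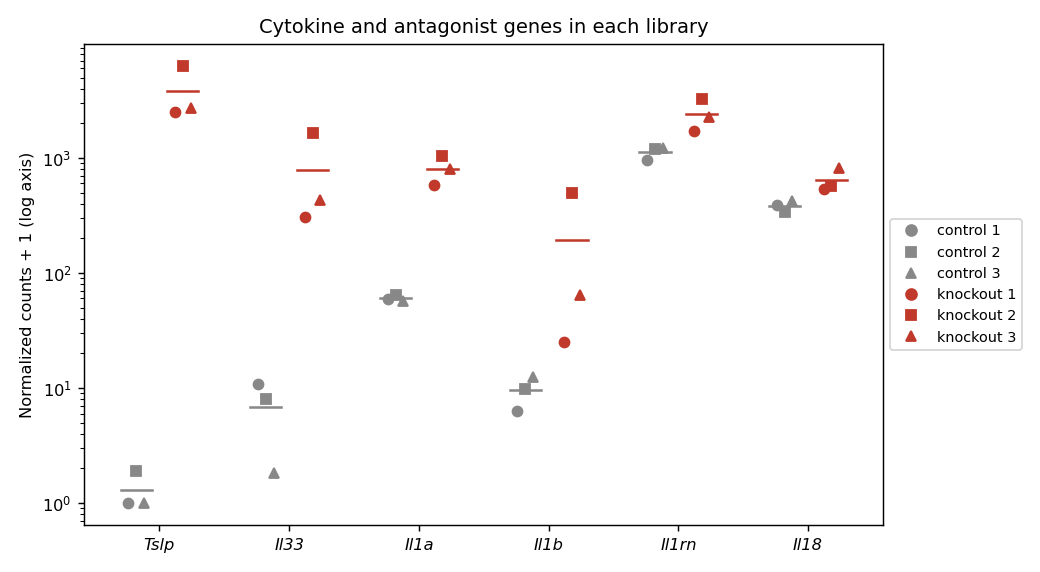
Normalized counts plus 1 (log axis) of the 6 genes in each library; grey points are controls, red points are libraries labelled knockout, marker shapes give the replicate and lines the group means. The red points lie above the grey points for every gene, by most for Tslp, and the red square, knockout 2, stands apart for Il1b.

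Levels can be compared between genes only per length, so values were divided by the length of all annotated exons of each gene (GRCm38), which depends on how many long isoforms are annotated. On that scale the order of group means in the controls was Il18 with 371 normalized counts per kb, Il1rn with 203, Il1a with 30.1, Il1b with 4.47, Il33 with 2.05 and Tslp with 0.222. The control ranges of Il18, Il1rn and Il1a were apart from each other, while those of Il1b and Il33, and of Il33 and Tslp, overlapped. In the knockout-labelled libraries the order was Tslp with 2887, Il18 with 623, Il1rn with 438, Il1a with 408, Il33 with 274 and Il1b with 101. There the ranges overlapped between each pair of neighbours after Tslp. Tslp took 60.4, 65.6 and 53.0% of the summed level per kb of the 6 genes in knockout-labelled libraries 1 to 3, and at most 0.114% in a control. Il18 took 56.2 to 64.1% in the controls and 7.66 to 20.8% in the knockout-labelled libraries.

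The balance of antagonist and agonist RNA also differed. The ratio of Il1rn to Il1a per kb was 5.89, 6.67 and 7.74 in controls 1 to 3 and 1.07, 1.12 and 1.02 in knockout-labelled libraries 1 to 3. The ratio depends on the exon lengths by a factor that is the same in all libraries. Its 3 knockout values lay close together although the level of Il1a differed 1.80-fold between them. That closeness depends on leaving out Il1b, the other agonist. With Il1a and Il1b summed, the ratio was 5.38, 5.83 and 6.40 in controls 1 to 3. In knockout-labelled libraries 1 to 3 it was 1.02, 0.753 and 0.941, lowest in knockout 2. These ratios follow from the same values as the differences above and are given without a test.

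The other interleukin-1 family ligands of the epidermis are those of the interleukin-36 group, which act through IL1RL2 and its partner IL1RAP and are blocked by the antagonist that Il36rn encodes. Over all genes, 33.6% passed the limma threshold of 0.05 after Benjamini-Hochberg adjustment, with 17.7% higher in knockout and 15.9% lower. All 3 measured interleukin-36 agonists rose, and Il36rn did not pass. Il36a went from 98.2, 96.5 and 135 to 371, 703 and 399 normalized counts, a log2 change of 2.11 ± 0.28 (SE, n = 3 and 3; limma adjusted p = 0.00127). Il36b rose by 1.69 ± 0.19 (adjusted p = 5.96e-04) and Il36g by 1.80 ± 0.27 (0.00202). These calls held without any single library.

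Il36rn had 3670, 3743 and 5310 normalized counts in the controls in order and 2031, 2654 and 3474 in knockout-labelled libraries 1 to 3, all 3 below the controls. Its log2 difference was −0.65 ± 0.24 (limma adjusted p = 0.0683). It passed with adjacent animal numbers as a block (adjusted p = 0.00954), without knockout 3 (0.028), with equal library totals (0.0155) and with quantile normalization (0.00651). The ratio of Il36rn to the summed agonists per kb was 1.10, 1.22 and 1.42 in the controls and 0.217, 0.163 and 0.311 in the knockout-labelled libraries. As with Il1rn and Il1a, the 2 groups did not overlap. That was fixed in advance, because each agonist was higher and Il36rn lower in every knockout-labelled library than in any control. The ratio is given without a test.

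**Figure D2:**
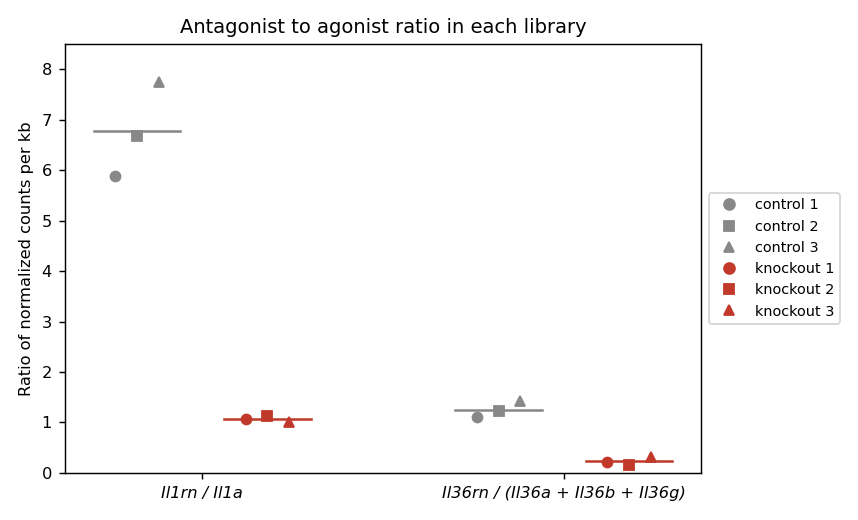
Ratio of antagonist to agonist normalized counts per kb of exon in each library, for Il1rn over Il1a and for Il36rn over the sum of Il36a, Il36b and Il36g; lines are group means. The controls lie between 5.89 and 7.74 for the first ratio and between 1.10 and 1.42 for the second, above all libraries labelled knockout.

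Receptors and decoys of these cytokines showed no call. Of 8 measured of 11 listed, 0 passed (limma adjusted p of 0.05), and their median log2 difference was 0.09, against −0.02 over all genes. An unadjusted limma p under 0.05 was found for 4 of the 8. Over all genes that share is at least the 33.6% that passed after adjustment, so nothing is read from these 4. Crlf2, the TSLP-specific receptor chain, had 16.6, 11.5 and 13.9 normalized counts in the controls in order and 28.0, 107 and 24.4 in knockout-labelled libraries 1 to 3 (log2 difference 1.53 ± 0.58, adjusted p = 0.0695). It passed without knockout 3 (adjusted p = 0.0406). Il1r1, the signalling receptor of interleukin-1, had 186, 209 and 112 against 139, 37.4 and 66.5 (−1.20 ± 0.46, adjusted p = 0.0736). The decoy receptor gene Il1r2 had 82.3, 120 and 45.8 against 199, 487 and 101 (1.47 ± 0.56, adjusted p = 0.072). Sigirr, which encodes an inhibitory receptor of the family, differed by −1.60 ± 0.56 (adjusted p = 0.0568).

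These near misses depended on the fit. With the block, Il1r1, Il1r2 and Sigirr passed (limma adjusted p = 0.0364, 0.00247 and 0.0296). Il1r1 and Sigirr also passed without knockout 1 (0.0178 and 0.0322), and Il1r2 without knockout 3 (0.0162). Sigirr passed with equal library totals (0.0415) and without the mean-variance trend (0.033) as well, and Crlf2 with quantile normalization (0.047). The interleukin-36 receptor gene Il1rl2 differed by 0.03 ± 0.29 and the shared coreceptor gene Il1rap by 0.15 ± 0.21, both with overlapping groups and a sign that turned with equal library totals and with quantile normalization. Il18rap, a chain of the interleukin-18 receptor, had 208 normalized counts in knockout 2 and at most 9.06 in any other library.

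Of 18 measured adaptors and kinases downstream of the receptors, 13 did not pass, 2 were higher and 3 lower (27.8%, against 33.6% over all genes), with a median log2 difference of −0.17. Irak3, which encodes an inhibitor of interleukin-1 and Toll-like receptor signalling, rose by 2.21 ± 0.36 (limma adjusted p = 0.00296), from 59.6, 68.2 and 28.6 to 188, 315 and 207 normalized counts. Irak4, the kinase that starts the signal, fell by 1.34 ± 0.33 (0.0166), a call lost without control 2 (0.0577) and without control 3 (0.0685). Stat5a and Stat5b, transcription factors that TSLP activates, fell by 1.19 ± 0.18 (adjusted p = 0.00225) and 1.67 ± 0.31 (0.00513). Jak2, a kinase that activates them, rose by 1.45 ± 0.46 (0.0399), a call lost without knockout 1 (0.0783) or 2 (0.0763), without control 1, 2 or 3 (0.0751, 0.0845 and 0.122) and with equal totals (0.0652). With equal library totals 1 gene was higher and 7 were lower, and with the block 4 and 4. Over all 12872 genes, 1442 were higher and 3065 lower with equal totals, and 2952 and 2829 with the block, so nothing is read from these counts. Leaving out single libraries left 1 or 2 higher, 1 in each case except without knockout 3. The number lower was 2 without control 2 or 3 (limma).

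Of 15 measured genes for cytokine processing and release, 4 rose and 1 fell (33.3%, against 33.6% over all genes; median log2 difference 0.31). Calpain cuts the interleukin-1 alpha precursor. Capn2, a calpain catalytic subunit, went from 97.3, 103 and 31.1 to 972, 1034 and 608 normalized counts, a rise of 3.62 ± 0.45 (limma adjusted p = 8.65e-04). The small calpain subunit Capns1 rose by 3.24 ± 0.49 (0.00215) and the calpain inhibitor gene Cast by 1.26 ± 0.20 (0.00265). Gsdma, a pore-forming gasdermin of the skin, rose by 1.58 ± 0.21 (0.00128).

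None of the caspase-1, Pycard and Nlrp3 genes passed as higher. Casp1 had 27.9, 23.0 and 39.2 normalized counts in the controls and 8.41, 17.0 and 31.0 in the knockout-labelled libraries (log2 difference −0.79 ± 0.52, limma adjusted p = 0.261). Pycard, the adaptor that joins caspase-1 to its sensors, fell by 0.95 ± 0.32 (0.0484). That call was lost without control 1, 2 or 3 (0.0805, 0.0912 and 0.156), without knockout 1 (0.129) and without knockout 2 (0.133), so the number lower was 0 in each. Nlrp3, an inflammasome sensor, had 150 normalized counts in knockout 2 and at most 15.5 in any other library. With the block, 2 genes were lower, in a fit where 2829 of all 12872 genes were lower, against 2049 in the main fit.

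Among 9 other epithelial cytokines measured of 26 listed, 4 rose and 2 fell (66.7%, against 33.6% over all genes), with a median log2 difference of 1.08. Clcf1, a ligand of the interleukin-6 family, went from 1.51, 9.74 and 2.45 to 75.7, 219 and 35.5 normalized counts, a rise of 4.23 ± 0.78 (limma adjusted p = 0.00489) that was 3.55 without knockout 2 and 4.85 without control 2. Tgfa, a ligand of the epidermal growth factor receptor, rose by 1.49 ± 0.28 (0.00538). Lif, another interleukin-6 family ligand, rose by 3.26 ± 0.93 (0.0278), a call lost without control 1 (0.0541) and without knockout 2 (0.0603) or 3 (0.0936). Tgfb1, outside the naming rule, rose by 1.08 ± 0.35 (0.0441), lost without control 1, 2 or 3 (0.0997, 0.0596 and 0.14) and without knockout 2 (0.118). Its adjusted p was 0.103 when library totals were set equal.

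Il34, which supports Langerhans cells through CSF1R, fell by 2.23 ± 0.30 (limma adjusted p = 0.00123), from 395, 391 and 620 to 78.5, 143 and 80.9 normalized counts. Il15, a growth factor of lymphocytes, fell by 1.83 ± 0.53 (0.0288), a call lost without control 1, 2 or 3 (0.0559, 0.0687 and 0.14) and without knockout 1 (0.0548). Over the fits without 1 library, between 2 and 5 of the 9 cytokines were higher, 2 without control 1 or without knockout 2, and between 1 and 3 lower. The number lower was 1 without control 1, 2 or 3 or knockout 1, and 3 without knockout 2.

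Of 8 chemokines tested, 3 rose and 2 fell (62.5%, against 33.6% over all genes), with a median log2 difference of 0.09. Of the 3 rises, those of Cxcl2 and Cxcl16 were lost in several fits. Cx3cl1, a membrane-bound chemokine for monocytes and T cells, fell by 2.68 ± 0.36 (limma adjusted p = 0.00122) and Cxcl14, made by resting keratinocytes, by 2.79 ± 0.49 (0.00421). Cxcl14 had 1542, 1203 and 540 normalized counts in the controls in order and 281, 126 and 84.3 in knockout-labelled libraries 1 to 3. Ccl20, the ligand of CCR6, rose by 3.94 ± 0.80 (0.00738), from 0.755, 9.74 and 15.5 to 59.8, 148 and 124. The rise was 2.97 without control 1 and 4.59 without control 3.

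Cxcl2, a neutrophil attractant, had 0, 3.54 and 0 normalized counts in the controls and 6.54, 631 and 29.9 in the knockout-labelled libraries (95% interval of the log2 change from 1.57 up to 8.42; limma adjusted p = 0.0335). Its call was lost without knockout 2 (log2 difference 3.21, adjusted p = 0.0786), without control 1 (0.089) and without control 3 (0.0899). Cxcl16 rose by 0.67 ± 0.23 (0.0498), a call lost without control 1, 2 or 3 (0.167, 0.1 and 0.0748), without knockout 1, 2 or 3 (0.0623, 0.128 and 0.0631) and with equal totals (0.236). In the fits without 1 library, 1 or 2 chemokines were higher. It was 1 without control 1, control 3 or knockout 2.

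Genes that are known to act on Tslp in keratinocytes include the vitamin D and retinoid receptors, whose partner is RXRA, and the protease receptor PAR2 (F2rl1). Kallikrein genes were listed with it. Of 18 genes of this list measured, 3 rose and 3 fell (33.3%, against 33.6% over all genes), with a median log2 difference of 0.01. Klk6, a kallikrein protease, rose by 5.26 ± 0.55 (limma adjusted p = 4.31e-04), from 46.8, 39.0 and 38.4 to 1443, 4240 and 697 normalized counts. The rise was 4.57 without knockout 2 and 5.87 without knockout 3. Klk7 rose by 1.61 ± 0.27 (0.00337), and so did Spink5, the inhibitor of these proteases, by 2.05 ± 0.24 (7.46e-04). With quantile normalization both were smaller, 0.77 and 1.15. The receptor gene F2rl1 differed by 0.45 (limma adjusted p = 0.166) and the kallikrein gene Klk5 by −0.27 (0.347), and neither passed. Klk5 passed as lower with equal library totals (0.0377) and with quantile normalization (0.0118).

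Rxra, the gene of the receptor partner, fell by 1.20 ± 0.22 (limma adjusted p = 0.00496), from 3506, 4482 and 4188 to 1736, 1368 and 2293 normalized counts. Rxrb, a gene of the same family, differed by −0.02 and did not pass (0.93). The vitamin D receptor gene Vdr differed by 0.72 and did not pass either (0.19). It passed as higher with the block (0.0119) and without control 2 (0.0491). The part of Rxra in the Tslp values was not tested. Orai1, a calcium channel subunit, fell by 0.99 ± 0.25 (0.0176), a call lost without control 1 (0.0743) and control 3 (0.0564). Rara, a retinoid receptor outside the naming rule, fell by 0.61 ± 0.19 (0.0413), a call lost without control 1, 2 or 3 (0.142, 0.0872 and 0.0988) and without knockout 1 or 3 (0.063 and 0.0909). Without control 1 or 3, the number lower was 1. With the block, 5 genes were higher and 4 lower, and with equal library totals 3 and 6. Over all 12872 genes the numbers were 2952 and 2829 with the block and 1442 and 3065 with equal totals, so nothing is read from these counts.

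**Figure D3:**
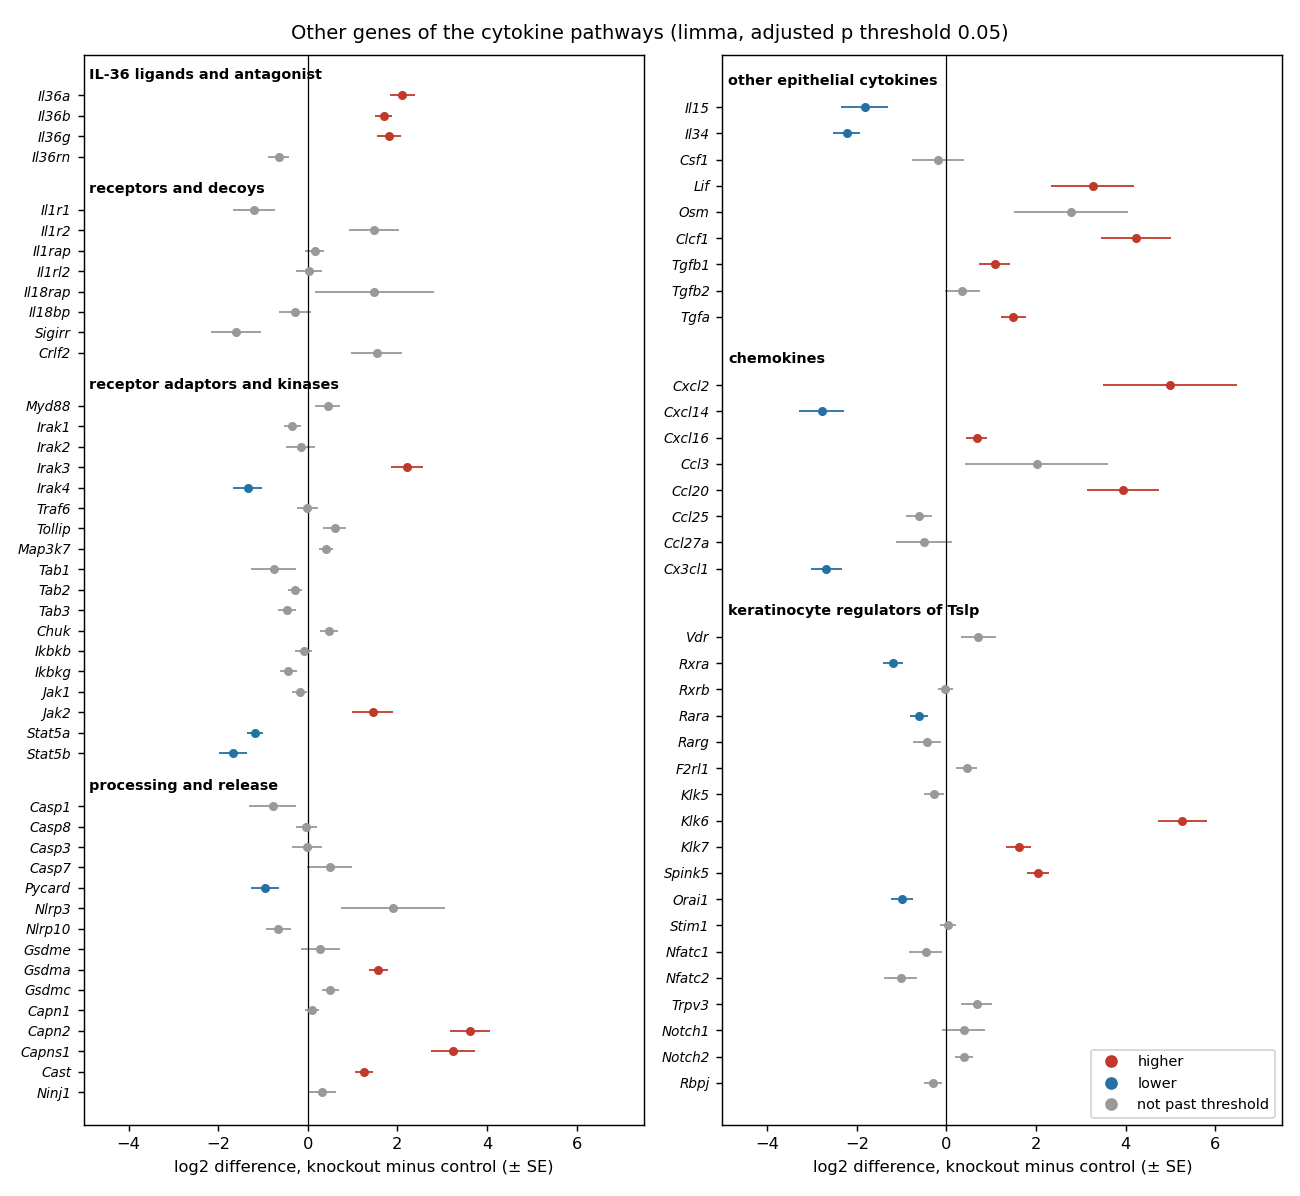
Log2 difference with its SE for each tested gene of the 7 pathway lists, knockout minus control (n = 3 and 3); red and blue points passed the limma threshold, grey points did not. The red and blue points lie on both sides of 0 in 5 of the 7 lists, the 3 interleukin-36 agonists lie together to the right, and no receptor is coloured.

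Il1b was highest in knockout 2, and so were several leukocyte genes. Of 15 markers of neutrophils, mast cells and basophils, 4 had values, all of them neutrophil markers. Their summed level was 3.27 to 7.55 normalized counts in the controls and 28.0, 861 and 29.9 in knockout-labelled libraries 1 to 3. Retnlg and Ngp, made by neutrophils, were listed at 0 in every control and reached 211 and 143 in knockout 2, with at most 1.11 in knockout 1 and 3. The neutrophil receptor genes Csf3r and Cxcr2 had 158 and 349 there. Of 16 myeloid and Langerhans markers, 13 had values, summing to 611 to 1010 in the controls and 350, 1689 and 635 in knockout-labelled libraries 1 to 3. Cxcr2 passed (limma adjusted p = 0.0259), but not without control 1, 2 or 3 (0.0673, 0.0585 and 0.0666). Of the myeloid markers, Cd68 and Lyz2 were higher and Csf1r and C1qa lower (0.0476, 0.0429, 0.0438 and 0.0382), and each of these 4 calls was lost without control 1 (0.0841, 0.0576, 0.14 and 0.114), without control 2 and without control 3. With equal library totals Cd68 and Lyz2 did not pass (0.145 and 0.107), and Csf1r and C1qa did (0.0143 and 0.0263). In the main fit 30.8% of the 13 myeloid markers passed, against 33.6% over all genes.

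The part of these cells in the values of knockout 2 was not tested. Without knockout 2 the log2 difference was 11.04 for Tslp, 6.07 for Il33, 3.50 for Il1a, 2.14 for Il1b, 0.83 for Il1rn and 0.80 for Il18. That all 6 were rises follows from groups that did not overlap. The part of leukocytes in knockout 1 and 3, whose neutrophil marker sums also lay above the controls, was not tested either. For knockout 1 alone against the controls, Cxcr2 was higher (log2 difference 3.18) and Csf3r lower (−1.27), so the higher sum there came from Cxcr2. Osm, a cytokine of leukocytes, had 296 normalized counts in knockout 2 and at most 13.3 in any other library. Cxcl3 was at 0 in every control, at 703 in knockout 2, 0.935 in knockout 1 and 8.87 in knockout 3. It did not pass the filter of values above 1 in at least 3 libraries, and without that filter its log2 difference was 4.57 (limma adjusted p = 0.101).

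**Figure D4:**
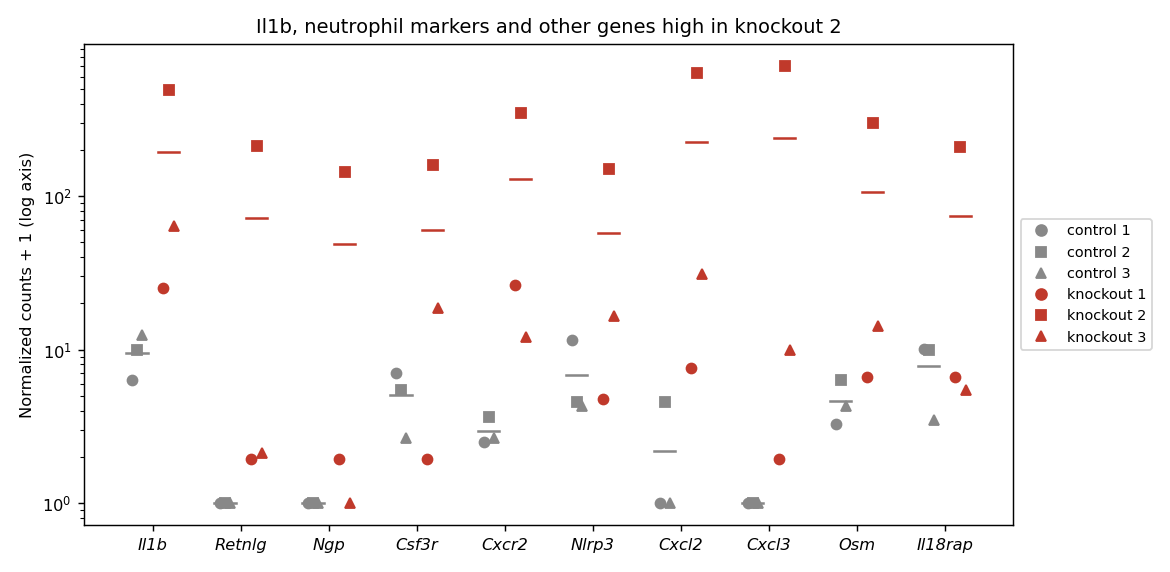
Normalized counts plus 1 (log axis) of Il1b, 4 neutrophil markers (Retnlg, Ngp, Csf3r and Cxcr2) and 5 further genes picked because they were high in knockout 2; lines are group means. The red square, knockout 2, is the highest point of every gene, at 490 for Il1b and 211 for Retnlg.

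Other cell types known to make Il33 or Tslp had mixed markers. Of 10 fibroblast markers, 6 had values. The collagen genes Col1a1, Col1a2 and Col3a1 rose by 3.62 ± 0.83, 1.65 ± 0.30 and 3.81 ± 0.65 (limma adjusted p = 0.0124, 0.00452 and 0.00353), and Fbln1, an extracellular matrix gene, fell by 2.44 ± 0.39 (0.00281). Of the 6 fibroblast markers, 66.7% passed, against 33.6% over all genes. The list had a summed level of 714 to 989 normalized counts in the controls and 560 to 774 in the knockout-labelled libraries. Of 10 endothelial markers only Pecam1 had values, at most 5.72 in a control and 59.5 in knockout 2. Of 15 markers of T cells and innate lymphoid cells, the cells on which these cytokines act, 4 had values and 2, Cd3e and Rora, were lower. Cd3e, a chain of the T cell receptor complex, fell by 3.06 ± 0.71 (adjusted p = 0.0128), from 22.7, 41.6 and 14.7 to 0.935, 3.40 and 2.22 normalized counts, a call lost without control 2 (0.0889). Gata3 and Rora, the most abundant of that list, are also expressed by keratinocytes. The part of these cells in the cytokine values was not tested.

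The genes next to the 6 on the chromosome were looked at after the values were seen. Il1a and Il1b lie side by side, and Il1rn lies beside the interleukin-36 genes on the same chromosome. The nearest protein-coding genes with values around the Il1a and Il1b pair were Ckap2l, which differed by −0.25 ± 0.41 (limma adjusted p = 0.655), and Sirpa, which fell by 1.12 ± 0.32 (0.0275). The Sirpa call was lost without control 1, 2 or 3 (0.0934, 0.053 and 0.0727) and without knockout 1 (0.0726) or 3 (0.0582). Beside Il33, Ranbp6 fell by 1.58 ± 0.26 (0.00315), and beyond Il1rn, Psd4 fell by 1.34 ± 0.19 (0.00167). Next to Tslp, Wdr36 rose by 1.66 ± 0.20 (8.53e-04), with 259, 243 and 370 normalized counts in the controls against 912, 861 and 935. Ercc3, Uhrf2, Pts and Sdhd, the other nearest genes with values, did not pass.

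The genes whose profile was most like each of the 6 were ranked by Pearson's r of log2(value + 1) over the 6 libraries. These libraries share the group difference, so a high r is found for many genes. For Tslp they were Asns, Prx and Sept2 (r = 0.9996, 0.9991 and 0.9985). Asns encodes asparagine synthetase. For Il1a, Sept2 and Asns came first again (0.999 and 0.998), followed by Nars (0.998). For Il33 they were Timp3, an inhibitor of matrix metalloproteases, Acadl and Lmna (0.999, 0.998 and 0.996). Timp3 had 260, 234 and 116 normalized counts in the controls and 1066, 2585 and 1348 in the knockout-labelled libraries, so that both genes were lowest in control 3 and highest in knockout 2.

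For Il1b the most similar genes were Psmb4, Pim1 and Rps6-ps4 (r = 0.998, 0.996 and 0.996). Pim1, a kinase induced by cytokines, had 7047 normalized counts in knockout 2 and 3190 and 3759 in knockout 1 and 3. For Il1rn they were Elob, Elovl4 and Psmb2 (0.999, 0.999 and 0.998), all of them highest in knockout 2. For Il18 they were Coa5, Rnd3 and Pdia3 (0.998, 0.991 and 0.986). Those were highest in knockout 3, as Il18 was.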

How the data were processed

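Epidermal RNA of 6 newborn mice was measured in 3 control and 3 knockout libraries. The authors deposited 1 table of normalized counts, treated here as a signal. Per the submitters' processing notes, build mm39, TopHat2 2.1.0 and Partek 9.0.20.0202 belong to it, in roles that are not given. How values were normalized, counted and assigned to a strand is likewise not given in the sources used here. In each library 80.3 to 82.9% of low values were whole multiples (within 0.02) of 1 step, read here as the value of 1 read, 0.755 to 1.70. The others were fractional, so count models were left out. A value over its step gave the estimated reads. Intervals and limits from reads cover counting error only.

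Of 12894 gene IDs, 12771 matched a symbol. The annotation at hand is of GRCm38 and gave names, neighbours and exon lengths only. Genes above 1 in at least 3 libraries (12872) were compared as log2(value + 1) with limma 3.58.1 in R 4.3.3 (mean-variance trend), with Benjamini-Hochberg adjustment over all of them and a threshold of 0.05, and the fit was tested on simulated data. The labels do not say that libraries come from separate litters. The p-values measure the spread between these libraries. The members, lists and tests were chosen with earlier results of these data known. From each pathway list, the up to 5 genes with the smallest adjusted p were named, or the 2 with the highest mean where fewer than 2 passed, and for each member the 3 genes of highest r among 6127 above the median level. Those named after their values were seen are Il36rn, Crlf2, Il1r1, Il1r2, Sigirr, Il18rap, Casp1, Nlrp3, Tgfb1, Rara, Rxrb, Vdr, F2rl1, Klk5, Osm, Cxcl3, Cd3e, Pecam1, Gata3, Rora, the neighbours and the other single markers.

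Titles carry animal numbers, and each control has a knockout with the next number. Such neighbours deviated together from their group means (r = 0.37, 0.23 and 0.36), and other control and knockout pairs had r of −0.28 to −0.07. Deviations from a group mean cancel within the group, so the negative values are not separate evidence for pairs. Libraries with adjacent numbers were made a block in an alternative fit, although no litter is stated. Pseudocounts of 0.5 and 5, no filter, a filter at 10, equal library totals, quantile normalization, no trend and leaving out each library were also run. Knockout 1 alone against the controls, where all spread comes from the 3 controls, was added after seeing the data. It is also the only comparison here in which all libraries were of the same sex by Xist and Ddx3y.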

Additional observations from a re-analysis of the deposited data

How the results depend on the processing

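The 6 genes were higher in the libraries labelled knockout in all 90 recomputed values (15 alternatives for each gene). Since their groups did not overlap, most alternatives could not turn a sign. Only equal library totals and quantile normalization could have done so, and nothing is read from the count. Without single libraries, the log2 differences ranged from 11.04 to 11.77 for Tslp, 6.00 to 7.29 for Il33, 3.50 to 3.92 for Il1a, 2.14 to 4.28 for Il1b, 0.83 to 1.29 for Il1rn and 0.54 to 0.84 for Il18. Tslp, near 0 in the controls, was at 12.28 with a pseudocount of 0.5 and 9.37 with 5. Knockout 1 had the Xist and Ddx3y pattern of the controls. For knockout 1 alone, the log2 difference was 10.99 for Tslp, 5.83 for Il33, 3.26 for Il1a, 1.46 for Il1b, 0.62 for Il1rn and 0.49 for Il18. The number of all genes higher and lower was 2279 and 2049. It was 1442 and 3065 with equal library totals, 2952 and 2829 with the replicate block, 1265 and 1220 for knockout 1 alone, and 1512 to 2342 and 1121 to 2167 without single libraries.

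With equal library totals, 1 interleukin-1 family gene (Il36rn), 1 receptor, 7 adaptors or kinases, 2 processing genes and 6 Tslp regulators were lower, and 1 adaptor or kinase was higher. With quantile normalization, 1 interleukin-1 family gene, 6 adaptors or kinases, 2 processing genes and 1 other cytokine were lower, and 1 receptor was higher. Without the trend, 1 receptor and 0 processing genes were lower, and 1 adaptor or kinase and 1 chemokine were higher. With the replicate block of adjacent numbers, 1 interleukin-1 family gene, 2 receptors and 2 processing genes were lower, and 1 receptor, 4 adaptors or kinases and 5 Tslp regulators were higher. For knockout 1 alone, 1 adaptor or kinase, 2 other cytokines and 0 chemokines were higher, and 1 other cytokine and 1 chemokine were lower. Without single libraries, the numbers higher and lower ranged from 3 to 3 and 0 to 1 for the interleukin-1 family, 0 to 2 and 0 to 2 for receptors, 1 to 2 and 2 to 4 for adaptors and kinases, 4 to 5 and 0 to 2 for processing, 2 to 5 and 1 to 3 for other cytokines, 1 to 2 and 2 to 2 for chemokines, and 3 to 4 and 1 to 3 for Tslp regulators. The cause of these shifts was not tested. The numbers called over all genes also changed between fits, with 2212 higher and 2218 lower after quantile normalization and 2006 and 1867 without the trend. Nothing is therefore read from the counts per list.

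Without the trend, the calls of Jak2, Pycard, Tgfb1, Cxcl2, Cxcl16, Rara, Sirpa, Csf1r and Cd68 were lost (adjusted p 0.0538 to 0.0849). Il15 was lost with quantile normalization (0.0662), Cxcl2 with a pseudocount of 5 (0.0627) and Cxcl16 with 0.5 (0.0501). Irak3, Ccl20 and Cxcl14, which held without any single library, were lost for knockout 1 alone (0.0677, 0.148 and 0.0861). Signs turned for several genes that had not passed, Ercc3, Uhrf2 and Sdhd among them. Il1rap was at −0.19 with equal totals, −0.031 with quantile normalization, −0.049 for knockout 1 alone and −0.027 (without knockout 2) to 0.25 without single libraries. Il1rl2 was at −0.32 with equal totals, −0.18 with quantile normalization and −0.18 (without control 3) to 0.32 without single libraries, with −0.07 and −0.17 without knockout 1 and 2. Ckap2l was at 0.23 for knockout 1 alone and −0.67 to 0.10 (without control 1). Il18rap was at −0.082 for knockout 1 alone and −0.22 (without knockout 2) to 2.41, and Tyrobp, a myeloid marker, at −1.43 and −0.18 (without knockout 2) to 1.79. For knockout 1 alone, Csf3r was at −1.27 and Nlrp3 at −0.36.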
